A study of Mus musculus with 6 samples.

Results

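The TNF superfamily was examined in the renal cortex of diabetic mice with and without the receptor for the complement fragment C3a. Its members were the array probes whose gene name was Tnf, Lta, Ltb, Fasl, Cd40lg, Cd70, a numbered Tnfsf or Tnfrsf gene, or one of the receptors with names of their own (Ltbr, Fas, Cd27, Cd40, Ngfr, Edar, Eda2r). The rule found 73 of the 56599 probes used, which represent 43 of 37322 gene names, 16 of them ligands and 27 receptors. Of these genes, 33 could be tested (11 ligands and 22 receptors) and 10 were too dim.

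The samples were male C57BL/6 mice, in a group of 3 wild-type (WT) samples and a group of 3 C3aR-/- samples, each measured on its own 1-colour Agilent array. Both groups were diabetic. Mice 8 weeks old ate a diet with 60% of its calories from fat for 4 weeks, were injected with streptozotocin, a toxin of insulin-producing cells, at 60 mg/kg on 3 days, and were killed 26 weeks after induction. The sources used here do not give how the C3aR allele was made. They do not say either that the samples are separate animals, so the p-values cover only the spread among these arrays. The non-diabetic groups were not analysed here, so every difference is one between genotypes under diabetes. By its title, the series asks how missing the receptor affects kidney disease in diabetes.

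TNF superfamily ligands are trimers held in the cell membrane or released from it, and they act by clustering their receptors. Receptors with a death domain can start cell death through caspases or necroptosis, and most of the others recruit TRAF adaptors and switch on NF-kB. Many ligands and co-stimulatory receptors of the family are made by T, natural killer (NK) and B cells, while the receptors for TNF, lymphotoxin and TWEAK are also made by the resident cells of tissues. In diabetic kidney disease the soluble forms of both TNF receptors in blood are known as markers of declining kidney function.

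A level below is the log2 signal of a probe relative to the 75th percentile of its array, which is set to 0, so levels of different probes are not comparable. A difference is C3aR-/- minus WT on the log2 scale, and its error is the standard error from limma, fitted over all 22744 tested genes. Between 58.6% and 63.0% of probes were well above background on each array, and the number of arrays limits the precision. No gene passed an adjusted p of 0.05 (limma, lowest adjusted p = 0.859), whereas 1110 genes (4.88%) had an unadjusted p under 0.05. That unadjusted threshold is the one used for every count below. C3ar1, the targeted gene, read -2.96, -3.86 and -3.62 in WT and -4.10, -4.95 and -4.69 in C3aR-/-, a difference of -1.10 ± 0.30. Its probe was well above background on 3 WT and 2 C3aR-/- arrays, and whether it lies in the deleted part is not stated. The difference was -0.39 with normexp, -0.66 with array weights and -0.65 without both extreme arrays described next. The tubular, podocyte and endothelial markers listed for kidney were well above background on all arrays. WT replicate 1 and C3aR-/- replicate 2 were the extreme arrays on principal component 1 (43.1% of the variance), and WT replicate 1 and C3aR-/- replicate 3 lay in row 2 of the slide while the other 4 lay in row 1.

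Most of the tested members read lower in C3aR-/- cortex: 27 of 33 had a difference below 0 and 6 were above, where 43.4% of all tested genes were below 0. In all, 6 members passed the unadjusted threshold, all of them lower, namely the ligands Ltb, Lta, Fasl and Tnfsf14 and the receptors Tnfrsf18 and Tnfrsf4. Lta was bright enough only in WT, so its entry into the test rested on the group where it is high. When all arrays had to be above background, 5 members passed, and 979 of all 20945 genes then tested. Over all genes, 2.68% were lower at that threshold and 2.2% higher. In 4 members no C3aR-/- array reached the lowest WT array, against 4.19% of all genes, and in 0 members was the order the opposite, against 5.65%. The median difference was -0.15 for ligands, -0.19 for receptors and 0.026 for all genes. Leaving out 1 array at a time gave from 3 members (without WT replicate 1, or without WT replicate 3) to 10 (without WT replicate 2). In the same fits the number of all genes past the threshold ranged from 767 to 1523. Without both extreme arrays of component 1 the receptor median was 0.0056. None of the 6 passed adjustment, with limma adjusted p-values of 0.921 for Tnfrsf18 and Lta and 0.931 for the other four.

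**Figure D1:**
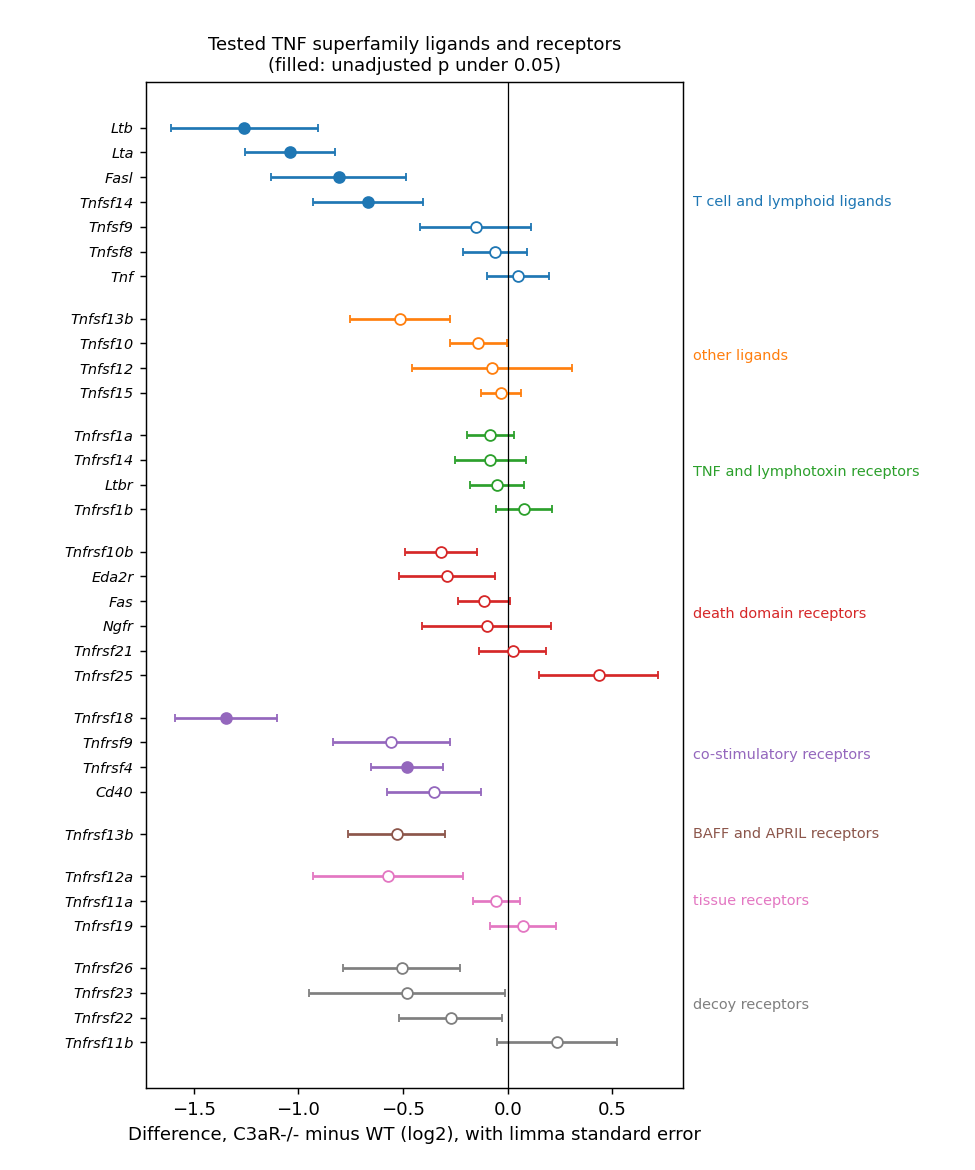
Difference between C3aR-/- and WT (x axis, log2) for each of the 33 tested members, grouped by role. Points are limma estimates with their standard errors, and filled points mark an unadjusted p under 0.05; the filled points lie in the T cell and lymphoid ligands and in the co-stimulatory receptors, all to the left of 0.

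The ligands grouped as T cell and lymphoid held 4 of the 6. The grouping is by role, and which cells made them here was not tested. Of 11 such ligands 7 were tested, 6 of them were lower, and their median difference was -0.67. The 4 past the threshold stand beside 2.68% of all genes that were lower past it. Ltb encodes lymphotoxin beta, which anchors lymphotoxin in the membrane as a heterotrimer with lymphotoxin alpha and signals through Ltbr in the organisation of lymphoid tissue. It read 0.63, 0.02 and 0.75 in WT and -0.38, -1.53 and -0.46 in C3aR-/-. All 3 C3aR-/- arrays lay below all WT arrays, with C3aR-/- replicate 2 the lowest by a wide margin. The means were 0.47 ± 0.39 in WT and -0.79 ± 0.64 in C3aR-/- (SD, n = 3 each), so WT was 2.39-fold higher. The difference was -1.26 ± 0.35 (limma, unadjusted p = 0.0106), and without those extreme arrays it was -0.81, still under the threshold.

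Lta, which encodes lymphotoxin alpha, the secreted or membrane-bound partner that can also bind both TNF receptors, was dim. It read -4.45, -4.62 and -4.07 in WT and -5.41, -5.75 and -5.10 in C3aR-/-. Again the groups were apart, and the number of arrays with the probe well above background was 3 in WT and 0 in C3aR-/-. Taking each C3aR-/- array at its lowest signal well above background, or at its own reading where that was higher, WT was 2.03-fold higher. Only C3aR-/- replicate 2 was below that lowest signal (-5.68 on its array). The other C3aR-/- readings were used as they were though not well above background, so 2.03 is not a firm lower limit. The measured means were -4.38 ± 0.28 in WT and -5.42 ± 0.33 in C3aR-/- (SD, n = 3 each). Lta entered the fit through its WT arrays alone, and with normexp background correction, whose offset shrinks differences of dim probes, it no longer passed the threshold (-0.22).

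Fasl, the death ligand of cytotoxic T and NK cells, read -3.71, -4.68 and -3.50 in WT and -4.96, -4.47 and -4.90 in C3aR-/-. WT replicate 2 lay inside the C3aR-/- range, so these groups overlapped. The difference was -0.81 ± 0.32 (limma, unadjusted p = 0.0442), and it lost the threshold in 10 of 17 alternatives, among them normexp (-0.26) and those without WT replicate 1 (-0.68), WT replicate 3 (-0.58), C3aR-/- replicate 1 (-0.72) or C3aR-/- replicate 3 (-0.75). Tnfsf14, also called LIGHT, a ligand of Ltbr and Tnfrsf14 on activated T cells, read -3.42, -3.71 and -3.30 in WT and -3.56, -4.43 and -4.44 in C3aR-/-. Here C3aR-/- replicate 1 lay among the WT arrays and the other 2 below them. The difference was -0.67 ± 0.26 (limma, unadjusted p = 0.0422), which lost the threshold in 9 of 17 alternatives and was -0.34 with array weights and -0.25 with normexp. It was lost without WT replicate 1 (-0.64), WT replicate 3 (-0.58), C3aR-/- replicate 2 or C3aR-/- replicate 3 (-0.52 each).

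The co-stimulatory receptors, which lymphocytes display to receive such signals, were all lower where tested. Of 6 members 4 were tested and 2 passed the threshold, where 2.68% of all genes were lower past it. The median difference was -0.52. Tnfrsf18, also called GITR, is carried by regulatory T cells and by activated T cells. It read -1.33, -1.90 and -1.28 in WT and -2.62, -3.27 and -2.66 in C3aR-/-. The gap between the lowest WT and the highest C3aR-/- array was 0.72, the widest of the tested members. The means were -1.50 ± 0.35 and -2.85 ± 0.37 (SD, n = 3 each), so WT was 2.54-fold higher. The difference of -1.35 ± 0.25 had the smallest p of the members (limma, unadjusted p = 0.00124) and stayed under the threshold in all 17 alternatives, at -0.88 with normexp.

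Tnfrsf4, or OX40, a receptor that prolongs T cell responses, read -0.62, -0.76 and -0.40 in WT and -0.98, -1.38 and -0.86 in C3aR-/-. The groups did not overlap, but the gap between them was only 0.11. The difference was -0.48 ± 0.17 (limma, unadjusted p = 0.0286) and passed the threshold no longer when WT replicate 1, WT replicate 3 or C3aR-/- replicate 2 was left out (-0.49, -0.39 and -0.33). Tnfrsf9, a co-stimulatory receptor of activated T and NK cells, differed by -0.56 ± 0.28, and Cd40, through which T cells activate B cells and macrophages, by -0.35 ± 0.23. Neither passed the threshold. In alternatives Tnfrsf9 passed with slide row as a block and without C3aR-/- replicate 3 (-0.74), and Cd40 passed without WT replicate 2 (-0.54).

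**Figure D2:**
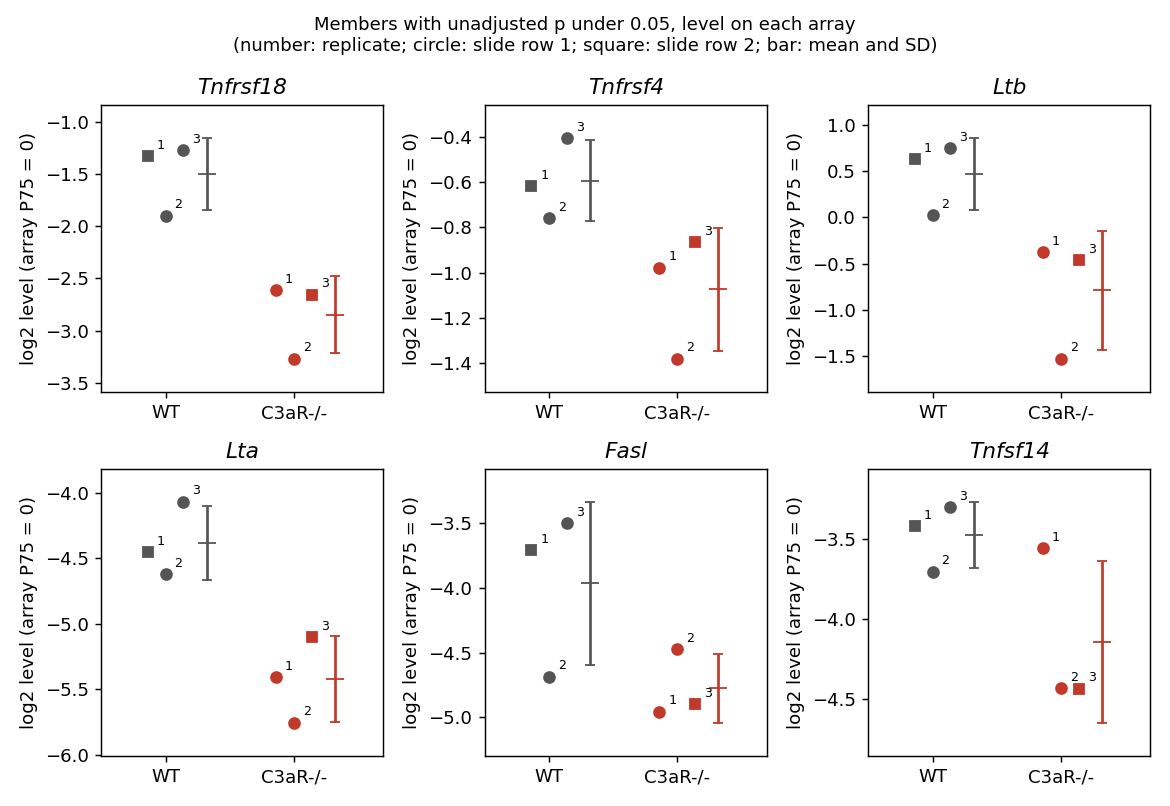
Level on each array (y axis, log2 signal with the array's 75th percentile at 0) of the 6 members with an unadjusted p under 0.05, with group mean and SD; circles are slide row 1 and squares slide row 2. In Tnfrsf18, Tnfrsf4, Ltb and Lta all C3aR-/- points lie below all WT points, while in Fasl and Tnfsf14 the groups overlap.

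For the 4 members without overlap an exact two-sided permutation test of the 6 arrays gave p = 0.1, the smallest that 3 against 3 allow, and for Fasl and Tnfsf14 it gave p = 0.2. Differences within slide row 1 and slide row 2 were -1.35 and -1.33 for Tnfrsf18, -1.34 and -1.09 for Ltb, -1.24 and -0.65 for Lta, -0.60 and -0.25 for Tnfrsf4, -0.62 and -1.18 for Fasl and -0.49 and -1.01 for Tnfsf14. For the 4 members without overlap, a lower value in both rows followed from that separation. Fasl and Tnfsf14 were also lower in both rows, of which row 2 held only WT replicate 1 and C3aR-/- replicate 3. With the row as a block, Fasl and Tnfsf14 lost the threshold (limma, unadjusted p = 0.0605 and 0.0530).

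Most lymphocyte and macrophage markers were lower on the same arrays. In the T cell list 9 of 10 markers were lower, 8 of them past the threshold (2.68% of all genes were), with a median difference of -1.09. The list's mean level was -0.45, -0.91 and -0.31 in WT and -1.34, -1.94 and -1.23 in C3aR-/-. Cd4 was the marker that was not lower (0.06). In the NK list 4 of 5 markers were tested and all 4 were lower, with a median of -1.07, list means from -2.87 to -2.47 in WT and from -3.91 to -3.41 in C3aR-/-. There Klrb1c and Eomes each cleared background on 3 WT arrays but only 1 C3aR-/- array, so their entry into the test rested on WT. The B cell list had a median of -0.45 (4 of 6 tested, all lower, 1 past the threshold). In the plasma cell list 3 of 4 markers were lower and Mzb1 was higher (0.23), with a median of -0.21 and none past the threshold. The dendritic cell list had a median of -0.80 (3 of 4 tested, all lower, 3 past the threshold). The macrophage list had a median of -0.59 (8 of 8 lower, 4 past the threshold). Its list means ran from 1.60 to 2.28 in WT and from 1.11 to 1.61 in C3aR-/-. All 7 proximal tubule markers read higher, by a median of 0.40, and none passed the threshold. Their list mean was lowest in WT replicate 1 (4.70), against 5.89 and 5.63 in WT replicates 2 and 3. C3aR-/- replicate 2 had the highest list mean, but C3aR-/- replicates 1 and 3 (5.74 and 5.53) lay below WT replicate 2. These groups therefore overlapped, and the low value of WT replicate 1 adds to the difference. In whole tissue, fewer cells of a type and less RNA per cell cannot be told apart.

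Set against the mean of the T cell list on the same array, the differences of the 6 members were smaller in size or changed sign. They became -0.40 for Tnfrsf18, -0.31 for Ltb and -0.10 for Lta, and 0.14 for Fasl, 0.28 for Tnfsf14 and 0.47 for Tnfrsf4. So Tnfrsf18 and Ltb differed by more than the mean of that list and Tnfrsf4 by less. Single markers of the list differed by -1.46 to 0.06, a range that also holds Tnfrsf18 (-1.35) and Ltb (-1.26). These values are given without a test.

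Several of these genes are neighbours. By the order of RefSeq protein-coding genes (GRCm38.p6), Ltb, Tnf and Lta follow each other on chromosome 17 and Tnfrsf4 and Tnfrsf18 on chromosome 4, with no coding gene between them. In the first group the outer genes Ltb and Lta were the lower ones, and the brightest probe of Tnf, between them, differed by 0.05. On chromosome 17, Tnfsf9 (-0.15) is separated from Tnfsf14 (-0.67) by Cd70, which was too dim to test. On chromosome 1, Tnfsf4 and Tnfsf18, both too dim, precede Fasl. The decoy receptors Tnfrsf26, Tnfrsf22 and Tnfrsf23 on chromosome 7 differed by -0.51, -0.27 and -0.48, none past the threshold. Tnfsf15 and Tnfsf8 on chromosome 4 differed by -0.03 and -0.06.

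The promoters of the neighbouring pairs are shown because their genes read lower together, apart from the brightest Tnf probe. Each is the 250 bases before the RefSeq start (GRCm38.p6), on the strand of the gene, and capitals mark matches to TATAAA or to the NF-kB type motif GGNNTTTCC on either strand. They lie at chr17:35194257-35194506 (Ltb, plus strand), chr17:35202008-35202257 (Tnf, minus), chr17:35205352-35205601 (Lta, minus), chr4:156013445-156013694 (Tnfrsf4, plus) and chr4:156026072-156026321 (Tnfrsf18, plus).
Ltb: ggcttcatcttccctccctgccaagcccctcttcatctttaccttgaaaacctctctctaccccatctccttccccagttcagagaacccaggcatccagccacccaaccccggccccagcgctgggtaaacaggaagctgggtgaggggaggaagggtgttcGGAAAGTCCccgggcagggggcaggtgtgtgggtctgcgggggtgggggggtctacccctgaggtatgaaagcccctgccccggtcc
Tnf: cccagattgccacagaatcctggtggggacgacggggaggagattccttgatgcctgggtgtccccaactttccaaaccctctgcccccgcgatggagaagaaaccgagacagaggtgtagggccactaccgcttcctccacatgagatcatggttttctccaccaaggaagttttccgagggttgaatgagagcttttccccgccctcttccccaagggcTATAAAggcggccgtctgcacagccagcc
Lta: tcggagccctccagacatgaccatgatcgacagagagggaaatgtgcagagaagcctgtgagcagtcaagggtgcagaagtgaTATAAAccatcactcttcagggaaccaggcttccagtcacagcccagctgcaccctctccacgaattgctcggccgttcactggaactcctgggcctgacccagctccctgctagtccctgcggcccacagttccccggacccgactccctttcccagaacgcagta
Tnfrsf4: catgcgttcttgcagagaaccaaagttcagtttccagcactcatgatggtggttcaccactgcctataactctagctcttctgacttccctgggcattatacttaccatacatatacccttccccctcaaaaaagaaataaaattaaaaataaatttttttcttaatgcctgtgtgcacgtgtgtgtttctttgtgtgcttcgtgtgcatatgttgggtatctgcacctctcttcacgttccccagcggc
Tnfrsf18: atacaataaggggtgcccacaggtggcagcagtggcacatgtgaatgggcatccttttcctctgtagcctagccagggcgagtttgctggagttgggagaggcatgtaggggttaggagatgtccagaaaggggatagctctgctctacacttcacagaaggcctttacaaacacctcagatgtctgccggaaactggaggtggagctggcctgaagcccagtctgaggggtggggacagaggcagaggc
The Ltb promoter holds the NF-kB type motif on its minus strand, 87 to 79 bases before the start. The Tnf promoter holds TATAAA 29 to 24 bases before the start, and the Lta promoter holds it 167 to 162 bases before. Neither set of letters occurs in the windows of Tnfrsf4 and Tnfrsf18. RefSeq promoters were found for 33 of the 43 members (37 promoters). GGNNTTTCC was present in 5 of these, those of Ltb, Tnfrsf9, Tnfrsf13b, Tnfrsf25 and Edar, and in 4.93% of all 32851 promoters of this length. TATAAA was present in 7, those of Tnf, Lta, Tnfrsf17, Tnfrsf23, Tnfsf11, Tnfsf18 and Eda2r, and in 12.4% of all. These matches describe letters and not sites of binding.

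Tnf itself gave a reading that depends on the probe. Its brightest probe, at chr17:35336967-35337026 in mm9, the build of the array's grid, read -2.63, -2.91 and -2.83 in WT and -2.96, -2.52 and -2.74 in C3aR-/-. These groups overlapped fully, and the difference was 0.05 ± 0.15 (limma, unadjusted p = 0.748). A second, dimmer probe of the same RefSeq transcript, at chr17:35336795-35336854, read -3.27, -1.84 and -4.14 in WT and -4.42, -5.36 and -4.23 in C3aR-/-. All of its C3aR-/- arrays were lower, though WT replicate 3 was close to C3aR-/- replicate 3 and the WT arrays spread widely (SD 1.16). Its difference was -1.59 ± 0.59 (limma over single probes, unadjusted p = 0.0337), and it cleared background on 3 WT and 2 C3aR-/- arrays. With the mean of both probes, Tnf differed by -0.77 (limma, unadjusted p = 0.0328), so the direction for Tnf turns with the rule for probes.

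Probes also differed within Fas and Tnfrsf1b. Fas, the receptor of Fasl, read 1.76, 1.42 and 1.55 in WT and 1.45, 1.38 and 1.56 in C3aR-/- on its brightest probe, a difference of -0.11 ± 0.12. A second probe, of another Fas transcript (chr19:34383733-34383792, mm9), read -3.11, -3.16 and -3.57 in WT and -4.31, -3.74 and -3.95 in C3aR-/-. Those groups did not overlap, and the difference was -0.72 ± 0.20 (limma over single probes, unadjusted p = 0.00879). Another probe with the name Fas is placed by the files on chromosome 4, not 19, and differed by 0.07. With the mean of probes Fas differed by -0.26 and passed the threshold (limma, unadjusted p = 0.0339). Tnfrsf1b, the TNF receptor found mainly on immune and endothelial cells, read -1.26, -1.58 and -1.50 in WT and -1.32, -1.25 and -1.55 in C3aR-/- on its brightest probe, a difference of 0.08 ± 0.14. Its RefSeq probe (chr4:144804304-144804363, mm9) read -1.31, -2.10 and -1.92 in WT and -2.17, -2.69 and -2.22 in C3aR-/-. There the C3aR-/- arrays all lay below the WT arrays, with a difference of -0.58 ± 0.25 that missed the threshold (limma over single probes, unadjusted p = 0.0518). With the mean of probes Tnfrsf1b turned sign, to -0.25.

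Tested probe by probe, 53 probes of the members were bright enough and 8 passed the unadjusted threshold, all lower, against 2.52% of all 34781 single probes. Those 8 are the 6 probes already described and the second probes of Tnf and Fas. Of 16 members with several such probes, 6 had probes of opposite sign. For Tnfsf13b (BAFF, a survival factor of B cells) the brightest probe differed by -0.51 ± 0.24 (limma, unadjusted p = 0.0706) and the other by 0.07. For Tnfrsf13b (TACI, a BAFF and APRIL receptor) the pair gave -0.53 ± 0.23 and 0.04. Their brightest probes passed the threshold without WT replicate 2 (-0.73 for Tnfsf13b and -0.69 for Tnfrsf13b) and without C3aR-/- replicate 1 (-0.65 and -0.70). Tnfsf13b also passed with normexp (-0.38). In Tnfrsf9 both probes were lower, at -0.56 and -0.94, neither past the threshold. In which exon or untranslated region the probes lie was not analysed here, since no mm9 annotation was used.

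**Figure D3:**
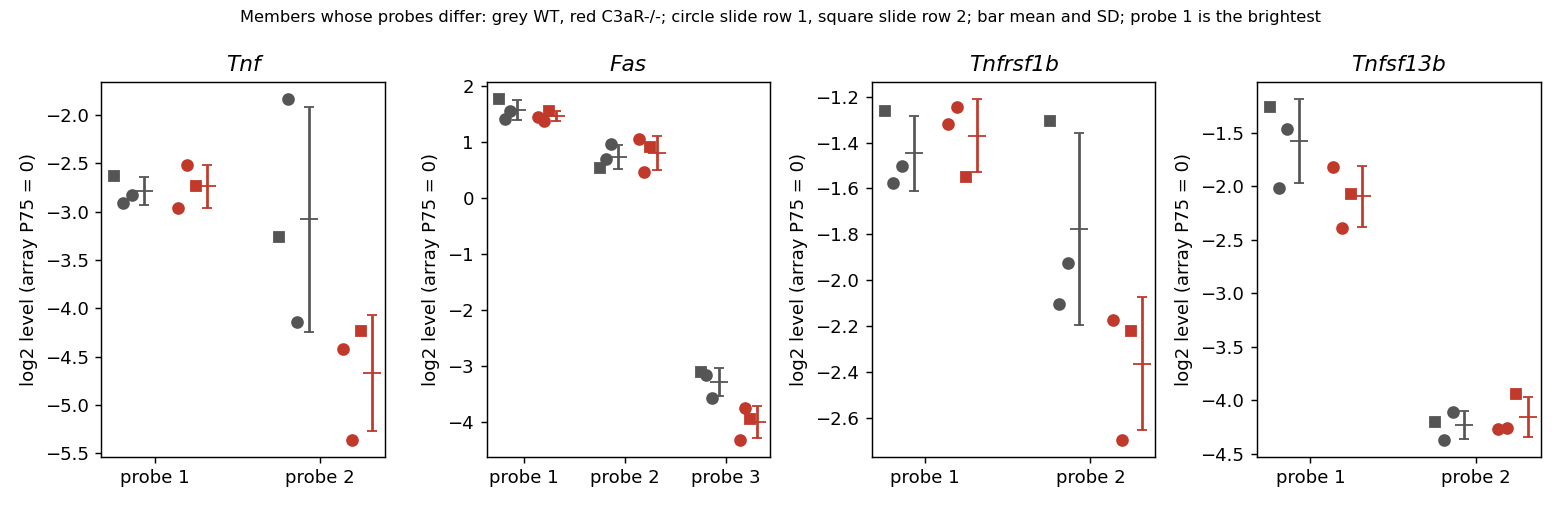
Level on each array (y axis, log2 signal with the array's 75th percentile at 0) for every probe that was bright enough in Tnf, Fas, Tnfrsf1b and Tnfsf13b, ordered from the brightest; grey is WT, red C3aR-/-, circles slide row 1, squares slide row 2, bars mean and SD. In Tnf, Fas and Tnfrsf1b a dimmer probe has all C3aR-/- points below all WT points while the brightest probe overlaps.

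The receptors for TNF, lymphotoxin and LIGHT showed small differences on their brightest probes. Tnfrsf1a, the widely expressed TNF receptor with a death domain, read 4.30, 4.03 and 4.07 in WT and 4.10, 3.98 and 4.07 in C3aR-/-. Apart from WT replicate 1 the arrays lay together, and the difference was -0.08 ± 0.11, with -0.18 on its other probe. Ltbr, the receptor of the Ltb and Lta heterotrimer, read 3.51, 3.61 and 3.62 in WT and 3.35, 3.76 and 3.48 in C3aR-/-. These groups overlapped, with a difference of -0.05 ± 0.13. It was not tested whether Ltbr differs from its ligands. Tnfrsf14, the receptor of LIGHT, differed by -0.08 ± 0.17. Its other probe differed by -0.84 without overlap, but was well above background on only 2 WT and 0 C3aR-/- arrays and was not tested. The median of these 4 receptors, Tnfrsf1b included, was -0.07, and none passed the threshold.

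Of the death receptors 6 of 7 were tested, 4 were lower and none passed the threshold, with a median of -0.11. In alternatives Fas passed with the mean of probes, Tnfrsf10b with the slide row as a block and Tnfrsf25 without both extreme arrays (0.35). Tnfrsf10b, the mouse receptor of the death ligand TRAIL, differed by -0.32 ± 0.17, and Tnfrsf21 by 0.02 ± 0.16. Ngfr, the low-affinity neurotrophin receptor, differed by -0.10 ± 0.31. Eda2r, an ectodysplasin receptor kept in this group although it lacks a death domain, differed by -0.29 ± 0.23. Tnfrsf25, a T cell receptor with a death domain that binds Tnfsf15, had the largest positive difference of the members at 0.43 ± 0.28. It read -0.41, 0.46 and 0.41 in WT and 0.77, 0.20 and 0.80 in C3aR-/-, so the low value of WT replicate 1 set it apart from the others. Within slide row 1 the difference was 0.05 and within row 2, which holds that array, 1.21.

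Among the other ligands 4 of 5 were tested, all 4 were lower and none passed the threshold. Besides Tnfsf13b these were Tnfsf10 (TRAIL) at -0.14 ± 0.14, Tnfsf12 (TWEAK) at -0.08 ± 0.38 and Tnfsf15 at -0.03 ± 0.10. Tnfsf12 read -0.60, -1.81 and -1.96 in WT and -1.42, -1.90 and -1.27 in C3aR-/-, so one WT array stood above the remaining 5. Without both extreme arrays, of which that WT array is one, Tnfsf12 turned sign, to 0.54. In the lymphoid ligands that missed the threshold, Tnfsf9 differed by -0.15 ± 0.27 and Tnfsf8, the ligand of Tnfrsf8, by -0.06 ± 0.15, with -0.83 on a dimmer second probe (limma over single probes, unadjusted p = 0.132).

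Tnfrsf12a, the TWEAK receptor that injured tubules and other resident cells induce, read 5.61, 4.95 and 4.64 in WT and 3.96, 4.43 and 5.11 in C3aR-/-. The groups overlapped, since C3aR-/- replicate 3 lay above WT replicates 2 and 3, and the difference was -0.57 ± 0.36 (limma, unadjusted p = 0.158). With the slide row as a block it passed the threshold at the same size (limma, unadjusted p = 0.0146), with differences of -0.60 in row 1 and -0.51 in row 2, and without C3aR-/- replicate 3 (-0.88). Tnfrsf11a, the receptor RANK, differed by -0.05 ± 0.11, and Tnfrsf19, a receptor of epithelial and neural progenitors, by 0.07 ± 0.16. Tnfrsf11b, or osteoprotegerin, the soluble decoy for RANK ligand, differed by 0.23 ± 0.29 but cleared background on only 2 WT arrays and 1 C3aR-/- array. Among the decoys on chromosome 7, the difference of Tnfrsf23 (-0.48 ± 0.47) rested on WT replicate 1, which read 1.05 against -0.62 and -0.31 for the other WT arrays, and it was -0.15 in slide row 1 and -1.14 in row 2. Tnfrsf22 differed by -0.27 ± 0.25, under the threshold only with the slide row as a block, and Tnfrsf26 by -0.51 ± 0.28, which passed the threshold without WT replicate 2 (-0.73).

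The 10 members too dim to test were the ligands Cd40lg, Cd70, Tnfsf4, Tnfsf11 and Tnfsf18 and the receptors Cd27, Tnfrsf8, Tnfrsf13c, Tnfrsf17 and Edar. Tnfsf11 is RANK ligand and Edar an ectodysplasin receptor of skin; most of the rest are known from lymphocytes and antigen-presenting cells. Edar was well above background on 1 array and the other 9 on 0 of 6. No level is given for them. Of co-stimulatory pairs, Tnfrsf18 and Tnfrsf4 were therefore measured without their ligands Tnfsf18 and Tnfsf4. No probe matched the rule for the APRIL gene Tnfsf13, which was not analysed here.

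Genes that carry the signal onward were read from a list of 65 adaptors, kinases, NF-kB genes, death effectors, sheddases and TNF-induced genes. Of the 60 tested, 45 were lower, 4 passed the unadjusted threshold as lower (2.68% of all genes did) and 2 as higher (2.2% did). The median difference was -0.16; leaving out WT replicate 1 gave -0.077, leaving out C3aR-/- replicate 2 gave -0.096, weighting the arrays gave -0.064, and leaving out both extreme arrays gave -0.029. Traf1, an adaptor of TNF and co-stimulatory receptors that is prominent in activated lymphocytes, read 0.49, 0.09 and 0.68 in WT and -0.31, -0.68 and -0.07 in C3aR-/-. Its groups did not overlap, and it differed by -0.77 ± 0.21 (limma, unadjusted p = 0.00996), missing the threshold only without both extreme arrays (-0.58). The other 12 adaptors and ubiquitin ligases did not pass, next among them Rnf31, the catalytic subunit of the linear ubiquitin ligase, at -0.17 ± 0.09, and the group's median was -0.08.

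NF-kB subunits and inhibitors were lower in 12 of 13 genes, with a median of -0.21, 2 past the threshold and 4 without overlap. Of all tested genes, 43.4% were lower, 2.68% were lower past the threshold and 4.19% were lower without overlap. Nfkb2, the subunit processed on the alternative pathway downstream of Ltbr, read 2.74, 2.40 and 2.58 in WT and 2.18, 1.77 and 2.37 in C3aR-/-, a difference of -0.47 ± 0.18 (limma, unadjusted p = 0.0400). The gap between its groups was narrow. Rel, a subunit best known in lymphocytes, read -0.25, -0.57 and -0.29 in WT and -0.57, -1.02 and -0.68 in C3aR-/-, a difference of -0.39 ± 0.16 (limma, unadjusted p = 0.0471). Its highest C3aR-/- array lay just under its lowest WT array. Nfkb2 lost the threshold in 7 of 17 alternatives and Rel in 8. The arrays whose loss alone did so were WT replicates 1 and 3 and C3aR-/- replicate 2 for both (-0.39, -0.46 and -0.30 for Nfkb2; -0.33, -0.35 and -0.26 for Rel), C3aR-/- replicate 1 for Nfkb2 (-0.50) and C3aR-/- replicate 3 for Rel (-0.42).

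Kinases showed no common direction (5 of 11 lower, median 0.02). Chuk, a catalytic subunit of the kinase that frees NF-kB, read higher by 0.33 ± 0.12 (limma, unadjusted p = 0.0289). Ripk2, a kinase of the NOD receptors, read higher by 0.53 ± 0.18 (limma, unadjusted p = 0.0227) but cleared background on only 1 WT array against 3 C3aR-/- arrays. Chuk lost the threshold in 8 of 17 alternatives. Among them were those without WT replicate 1 (0.32), WT replicate 3 (0.27), C3aR-/- replicate 1 (0.31) or C3aR-/- replicate 2 (0.28). Ripk2 lost it without WT replicate 3 (0.40) or C3aR-/- replicate 2 (0.39), and with normexp (0.14). Of 5 sheddases, Adam17, which cuts TNF and its receptors from the cell surface, read 1.22, 1.16 and 1.34 in WT and 0.94, 1.04 and 0.96 in C3aR-/-. No C3aR-/- array reached the WT arrays, with a difference of -0.26 ± 0.10 (limma, unadjusted p = 0.0333), though with the mean of its probes the difference was -0.011. Adam17 missed the threshold in 6 of 17 alternatives, among them those without WT replicate 3, C3aR-/- replicate 1 or C3aR-/- replicate 3 (-0.22, -0.24 and -0.25). Rhbdf2, needed for its transport, differed by -0.21 ± 0.15.

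Death effectors had a median of -0.17 and none passed the threshold. The necroptosis genes Mlkl and Ripk3 had the smallest p of the group, at -0.70 ± 0.33 and -0.60 ± 0.40; Mlkl passed without C3aR-/- replicate 3 (-0.90). Of 16 TNF-induced genes 11 were tested; 8 were lower, the median was -0.40 and none passed. The chemokines Cxcl1 and Ccl5 differed by -0.40 ± 0.20 and -0.63 ± 0.34, and passed the threshold without WT replicate 3 (-0.56, Cxcl1) and without C3aR-/- replicate 3 (-0.98, Ccl5). Il6, Sele, Cxcl2, Csf2 and Tnfaip6 were too dim to test. Ccl5 is also made by T and NK cells, whose markers were lower on the same arrays as given above, and their part in its difference was not tested.

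**Figure D4:**
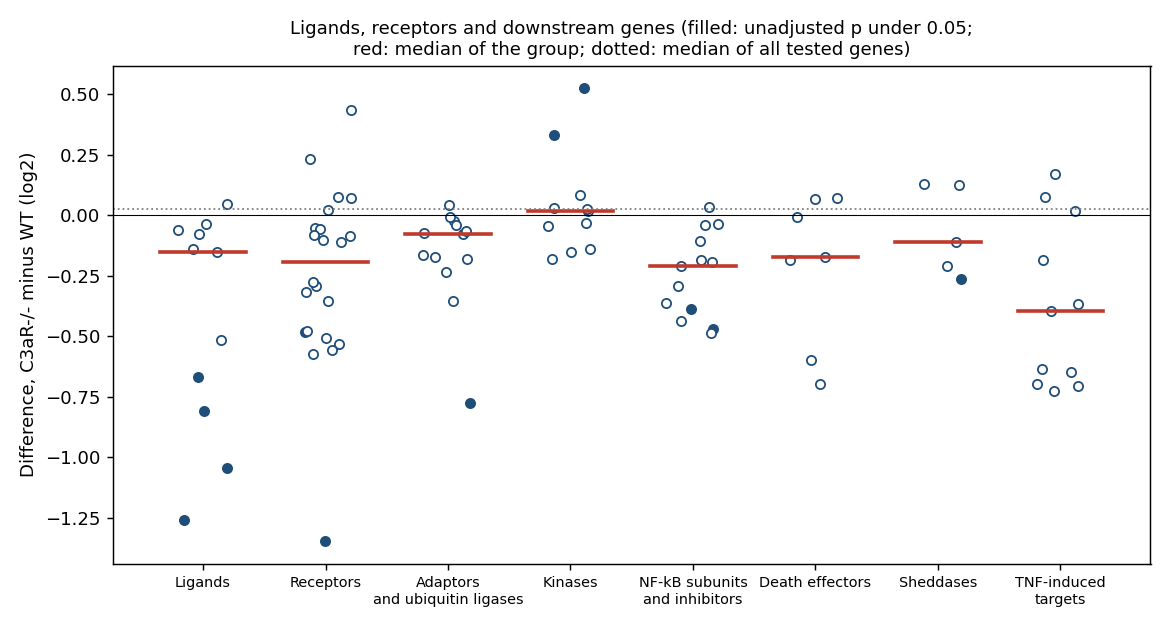
Difference between C3aR-/- and WT (y axis, log2) of each tested ligand, receptor and downstream gene, by role; filled points mark an unadjusted p under 0.05, red bars the median of each group and the dotted line the median of all tested genes (0.026). Ligands and receptors hold the largest negative values, -1.26 for Ltb and -1.35 for Tnfrsf18, and the medians run from -0.40 in TNF-induced genes to 0.02 in kinases.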

How the data were processed

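Each of the 6 samples had its own array, and the titles give the groups. Per the labels' protocols, 0.2 µg of RNA was labelled with Cy3. The scanner files came from Agilent Feature Extraction 10.7.1.1, per the submitters' processing notes, and per the file headers hold 62976 spots an array from 1 slide and 1 scan, on an mm9 grid. The deposited intensity used is the scanner's processed signal; per the file headers it has background removed and no scaling between arrays. The mean and background signals served for normexp. The authors' deposited table holds log2 values whose columns share 1 distribution (largest difference of sorted values 0.000865), each with a median of 5.73, and follow the processed signal of their own array (lowest r 0.999). No source used here gives the other steps behind it.

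Without control and outlier-flagged spots, which removed 6 of 56605 probes, none was saturated. Signals were put on the log2 scale, and the 75th percentile of each array was then subtracted. Probes well above background on at least 3 arrays were kept (34781) and the probe with the highest mean was used for each gene. For 32987 probes the accession gave the symbol (RefSeq, GRCm38.p6), and 23612 kept the name in the files. Testing used lmFit and eBayes of limma 3.58.1 (R 4.3.3), adjusting over 22744 genes by Benjamini-Hochberg; the fit was first tested on simulated data. Permutation tests used scipy 1.17.1 and figures matplotlib 3.10.9. The members and lists were chosen with earlier results of these data known. Values on every array were given for members with an unadjusted p under 0.05, for Tnf, Tnfrsf1a and Tnfrsf1b and for members without overlap whose difference was at least 0.5, and for some others chosen after their values were seen; in each downstream role the 2 genes with the smallest p were named. Alternatives were median scaling, quantile normalization, the authors' table, normexp (offset 50), dropping the filter or requiring all arrays, averaging probes, array weights, a block for replicate number or slide row, and fits without each array or without both extreme arrays of component 1; testing each probe on its own was chosen after seeing the data.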

Additional observations from a re-analysis of the deposited data

How the results depend on the processing

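Of 17 alternatives for the 6 members under the unadjusted threshold, Tnfrsf18 and Ltb passed in all 17 and Lta in 15 of the 16 in which it was tested; Tnfrsf4 missed it in 4, Tnfsf14 in 9 and Fasl in 10. The number of members under the threshold was 6 and ranged from 3 (without WT replicate 1, and without WT replicate 3) to 10 (without WT replicate 2). Over the fits without 1 array, the number of all genes under it also moved, from 767 to 1523. Samples of the same replicate number share only that number: their deviations from group means correlated at 0.125, 0.406 and -0.093, and 3 of 6 samples correlated best with their own number. With the replicate number as a block the number of members was 9 and that of all genes 1596 in place of 1110; Cd40 (limma, unadjusted p = 0.0408), Tnfrsf9 (0.0376), Tnfsf13b (0.00636) and Tnfrsf13b (0.00373) passed, and Fasl (0.0750) and Adam17 (0.0660) no longer did. The number of all genes was 2115 with array weights, 1741 with the slide row as a block and 2026 without both ends of the first component, and no alternative gave a gene under an adjusted p of 0.05. The median of the ligands was -0.45 with the mean of probes, and that of the receptors 0.0056 without both ends.

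Signs turned for Ripk3 and for members between -0.48 (Tnfrsf23) and 0.23 (Tnfrsf11b), none of which had passed the threshold before the alternatives. Where its sign turned, Tnfsf12 read higher in C3aR-/- and did pass, with a lowest p of 0.00845 (limma, unadjusted). With normexp Tnfrsf14 was at 0.055, and with the mean of probes Tnf was at -0.77, Tnfrsf19 at -0.21 and Tnfrsf1b at -0.25. With array weights the values were 0.35 for Ngfr, 0.029 for Tnfrsf11a, 0.010 for Tnfrsf1a, -0.063 for Tnfrsf21, 0.072 for Tnfrsf23, 0.30 for Tnfsf12, 0.10 for Tnfsf8 and 0.15 for Tnfsf9. Without both ends they were 0.048 for Eda2r, 0.023 for Fas, 0.34 for Ngfr, 0.037 for Tnfrsf11a, 0.038 for Tnfrsf1a, 0.30 for Tnfrsf23, 0.54 for Tnfsf12, 0.068 for Tnfsf8, 0.22 for Tnfsf9 and 0.032 for Ripk3. Leaving out 1 array at a time gave ranges from -0.38 to 0.16 for Ngfr, -0.11 to 0.018 for Tnfrsf11a, -0.14 to 0.0017 for Tnfrsf1a, -0.81 to 0.026 for Tnfrsf23, -0.33 to 0.35 for Tnfsf12, -0.074 to 0.0014 for Tnfsf15, -0.21 to 0.019 for Tnfsf8, -0.36 to 0.085 for Tnfsf9, -0.060 to 0.16 for Tnf, -0.060 to 0.18 for Tnfrsf19, -0.20 to 0.066 for Tnfrsf14, -0.13 to 0.13 for Tnfrsf21, -0.17 to 0.039 for Ltbr and -0.050 to 0.49 for Tnfrsf11b. The cause of these changes was not tested.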
